A study of Carya illinoinensis with 18 samples.

Results

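When stress raises the Ca2+ level in a plant cell, the ion is bound by the EF-hands of calcineurin B-like proteins (CBLs). A CBL loaded with Ca2+ docks on a CBL-interacting protein kinase (CIPK) at a short motif, named NAF, that otherwise keeps the kinase inactive, and the active CIPK then phosphorylates its target proteins, among them ion transporters. Plant *CIPK* genes fall into an intron-rich and an intron-poor group, and the intron-poor genes of pecan form Clade E. CBL-CIPK modules are known for their part in ion homeostasis and in the responses to drought and salt.

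Of the 31074 genes in the expression table, 3 are described here as abundant Clade E genes: *CiPaw.16G114100* (identifier CIL1119S0056), *CiPaw.15G175200* (CIL1575S0001) and *CiPaw.13G065800* (CIL0945S0118). They were chosen by their mean FPKM over all libraries, above 30, together with a gene structure of 1 or 2 exons, so their levels are given as a description and without a test. FPKM is a number of fragments divided by the length of the transcript and by the fragments mapped in the library, so that levels can be compared between genes. The gene names place them on chromosomes 16, 15 and 13. The first and second of them carry no intron in the study's annotation and are one of its segmentally duplicated pairs, and the third carries an intron. The table itself names no gene. The names came with the choice of the rows and rest on an earlier match of day means with printed values, which was not repeated here, so a day mean is no independent support for a name. The other *CIPK* genes and all *CBL* genes were not analysed here, so the 3 genes are no complete list of Clade E genes above 30 FPKM, and no value just outside the limit is given. The lowest mean inside it was the 39.1 FPKM of *CiPaw.13G065800*. No sequence or position of the 3 genes is printed here, because the reference used here lists none of their identifiers.

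Leaves came from grafted seedlings of the cultivar Pawnee, budded on rootstocks raised from Pawnee seeds, which stood in a growth chamber and received no water for 15 d. The untreated plants of 0 d were the control, and the treated groups had been without water for 3, 6, 9, 12 or 15 d. Each group held 3 libraries, 18 in all, and each library pooled the leaves of at least 3 plants. No watered plants of a later day are among the libraries, so drought and the days passed cannot be told apart. Leaf markers were not checked, because the table names no gene.

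The number of reads per library is unknown, but relative depth was estimated from the steps between low values, and the estimates differed by at most 1.38-fold between libraries. The search covered only a limited range of ratios, so a much larger difference between 2 libraries could not have been returned. For 100% of the pairs of libraries the fitted depths lay within 0.05 of the pair's own log2 ratio. Libraries of one day did not always resemble each other. The mean correlation of a library with the others of its day, on log2(FPKM + 1) over 24443 genes, ranged from 0.886 for 3 d replicate 2 to 0.987 for 15 d replicate 2. It was 0.919 for 6 d replicate 3 and 0.898 for 9 d replicate 1, against 0.945 and 0.953 for the other libraries of 6 d and 0.921 and 0.940 for those of 9 d. Several other libraries of 3 d and 12 d were less like their day than 6 d replicate 3. Results are given with and without 6 d replicate 3 because each of the 3 genes was lowest in it among the libraries of 6 d, a choice made after its values were seen. Leaving it out raises the 6 d mean of each gene by that choice, so calls found only without it are no added support.

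*CiPaw.16G114100* was among the most abundant transcripts of the leaf. Its mean over the 18 libraries was 683 FPKM, which placed it at rank 56 of 31074 genes, and in single libraries its rank lay between 18 and 98. It alone took 0.122% of the summed FPKM. *CiPaw.15G175200* had a mean of 168 FPKM and rank 365, with ranks between 74 and 1502 in single libraries. *CiPaw.13G065800* had a mean of 39.1 FPKM and rank 3125, within the top 10.1% of genes. The order of the 3 genes was the same in 18 of 18 libraries. The lowest value of *CiPaw.16G114100*, 478 FPKM in 6 d replicate 3, still exceeded the highest of *CiPaw.15G175200*, 461 FPKM in 6 d replicate 2. The lowest value of *CiPaw.15G175200*, 66.5 FPKM, in turn exceeded the highest of *CiPaw.13G065800*, 57.2 FPKM.

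**Figure D1:**
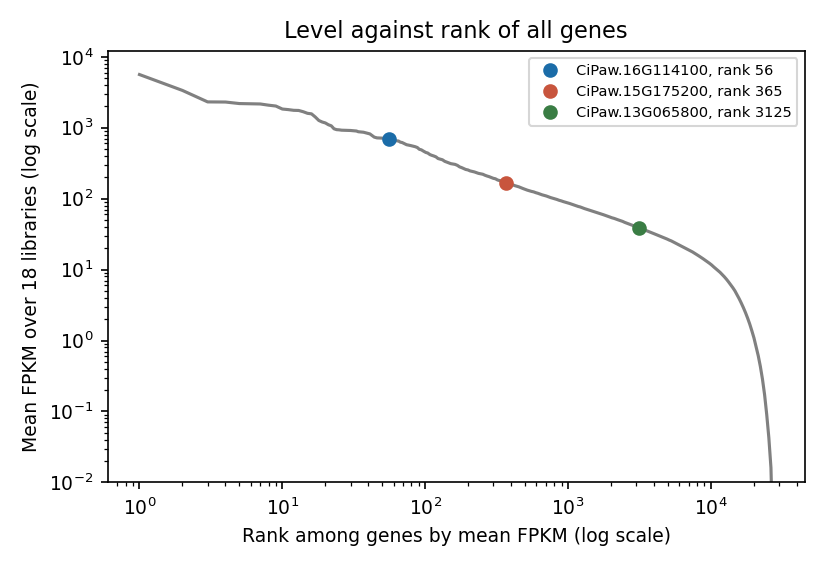
Mean FPKM over 18 libraries against the rank of the mean among all genes, both on log axes. The grey line is the curve of all genes, and the 3 points mark *CiPaw.16G114100* at rank 56, *CiPaw.15G175200* at rank 365 and *CiPaw.13G065800* at rank 3125.

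The expression of *CiPaw.16G114100* was even before drought and uneven at 6 d. At 0 d its libraries held 642, 699 and 697 FPKM, a mean of 679.6 ± 32.3 FPKM (SD, n = 3). At 3 d they held 623, 776 and 592 FPKM, a mean of 664 ± 98.6 FPKM that overlapped with 0 d. At 6 d replicates 1 and 2 held 1112 and 1099 FPKM, the highest values of the gene, and replicate 3 held 478 FPKM, the lowest. The 6 d mean of 896 ± 362 FPKM thus stands for no library of that day. At 9 d the values were 565, 854 and 668 FPKM, at 12 d 637, 534 and 564 FPKM, and at 15 d 495, 574 and 677 FPKM. From the highest to the lowest day mean the order was 6, 9, 0, 3, 15 and 12 d, and neighbours in this order differed by less than the SD of at least one of them. The 12 d libraries all lay below those of 0 d, as was the case for 20.5% of the genes tested.

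For *CiPaw.15G175200*, the duplicate of the former gene, the highest values were also those of 6 d and 9 d, but not in every library of these days. At 0 d the gene had 119.8, 130.1 and 91.4 FPKM, a mean of 113.8 ± 20.03 FPKM (SD, n = 3). At 3 d it had 129, 66.5 and 84.2 FPKM. At 6 d it reached 376 and 461 FPKM in replicates 1 and 2 but 94.4 FPKM in replicate 3. The same split appeared at 9 d, with 397 and 260.4 FPKM in replicates 2 and 3 and 93.2 FPKM in replicate 1. These 4 libraries were the highest of all 18, and the remaining library of either day lay within the range of 0 d. The values were 173, 136 and 89.7 FPKM at 12 d and 67.3, 67.0 and 186 FPKM at 15 d. Day means were highest on day 6 with 310.3 ± 192 FPKM and on day 9 with 250.3 ± 152 FPKM. Day 12 followed with 133 ± 41.7 FPKM, then the control, day 15 with 106.7 ± 68.5 FPKM and day 3 with 93.1 ± 32.1 FPKM. Neighbours in this order differed by less than the SD of at least one of them.

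*CiPaw.13G065800*, the least abundant of the genes, varied least and was highest at the end of the treatment. Its libraries held 31.6, 33.3 and 27.5 FPKM at 0 d, a mean of 30.8 ± 2.99 FPKM (SD, n = 3), and 31.8, 32.95 and 31.25 FPKM at 3 d. At 6 d replicates 1 and 2 lay above these, with 47.2 and 46.25 FPKM, while replicate 3 held 32.0 FPKM. The values were 33.7, 42.9 and 33.32 FPKM at 9 d and 42.2, 33.29 and 46.0 FPKM at 12 d. At 15 d they were 51.8, 57.2 and 49.8 FPKM, a mean of 52.9 ± 3.803 FPKM, and every library of 15 d lay above all others. In the order of the day means, day 15 was followed by day 6 with 41.8 ± 8.53 FPKM, day 12 with 40.5 ± 6.51 FPKM, day 9 with 36.6 ± 5.41 FPKM, day 3 with 32.0 ± 0.87 FPKM and the control. Only the step from 15 d to 6 d exceeded the SD of both days.

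**Figure D2:**
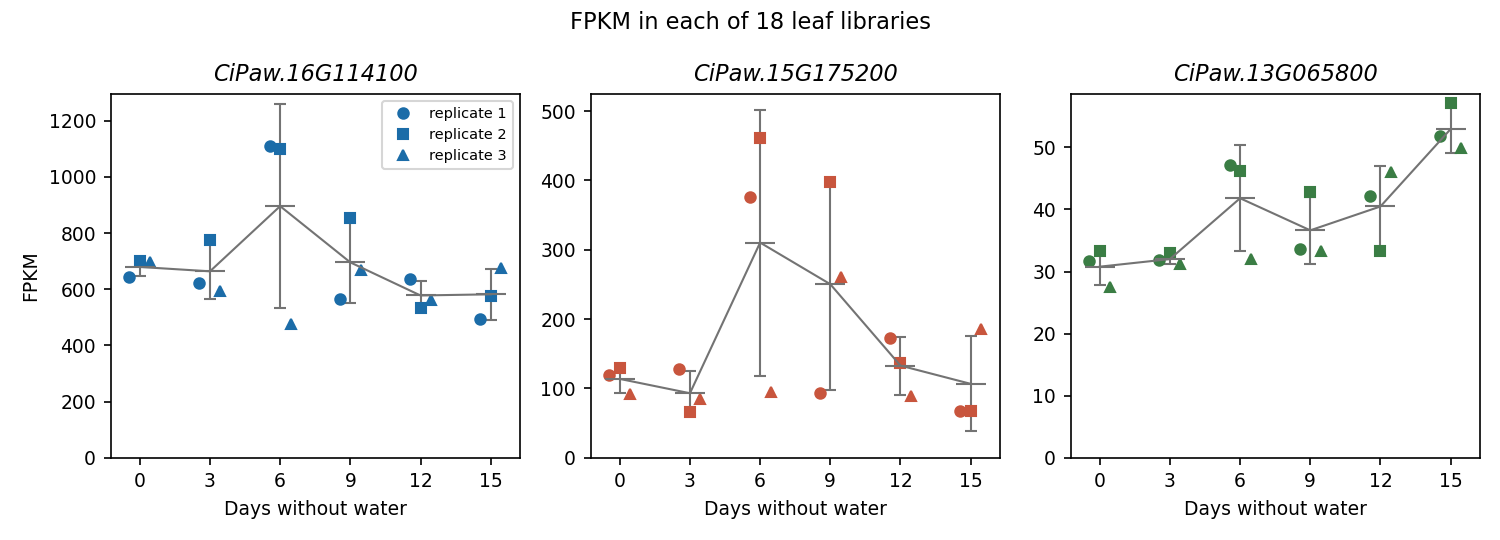
FPKM of the 3 genes (y axis, from 0, with its own scale for each gene) against days without water (x axis). Symbols are single libraries, marked by replicate and shifted slightly sideways, and the grey line joins the day means with SD (n = 3); replicate 3 of 6 d is low for each gene, and the 15 d libraries of *CiPaw.13G065800*, at 49.8 to 57.2 FPKM, are above its other libraries.

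Whether the genes changed under drought was tested with limma on log2(FPKM + 1) over all libraries, against 0 d, with Benjamini-Hochberg adjustment over 24443 genes and a call at an adjusted p under 0.05. The contrasts between days do not use the mean over all libraries that chose the genes. Of the 3 genes, 0 were called at 3 d, 6 d, 9 d and 12 d, against 0.0286%, 13.9%, 23.2% and 31.1% of all genes tested. At an unadjusted p under 0.05 there was 1 gene each at 6 d and 12 d, *CiPaw.13G065800* both times, against 29.2% and 42.9% of all genes, and there were 0 at 3 d and 9 d against 11.3% and 37.2%. At 15 d, 1 of the 3 genes was called, and it was higher than at 0 d, while 56.1% of all genes were called in either direction and 22.1% as higher. A test across all days (moderated F-test) called 1 of 3 genes against 57.8% of all genes. The samples are bulk leaf tissue, in which fewer cells of a type and less RNA per cell cannot be told apart.

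*CiPaw.13G065800* rose at 15 d. Its mean FPKM was 1.72 times that of 0 d, and its log2 difference was 0.77 (standard error 0.16, 95% interval 0.42 to 1.11, adjusted p = 0.00110 from limma). The median log2 difference of all genes at 15 d was -0.24, and 17.98% of the genes tested had a larger difference than *CiPaw.13G065800*. The 15 d and 0 d libraries did not overlap, and 28.1% of all genes were higher without overlap. The call held under each of the 27 alternatives tried, with log2 differences from 0.69 to 1.12. At 6 d the log2 difference was 0.41 (standard error 0.16, adjusted p = 0.107), and without 6 d replicate 3 it was 0.59 (adjusted p = 0.0281 from limma, standard error 0.15). At 9 d the log2 difference was 0.24 (adjusted p = 0.304) and at 12 d 0.38 (adjusted p = 0.0905). On both days its lowest library, 33.32 and 33.29 FPKM, exceeded the highest of 0 d, 33.26 FPKM, by less than 0.1 FPKM, and 27% and 23.5% of all genes were higher without overlap. Without 12 d replicate 2, the gene was called at 12 d, with a log2 difference of 0.51 (adjusted p = 0.0265 from limma), as were 40.3% of all genes. Between 6 d and 15 d the log2 difference was 0.35 (standard error 0.16, adjusted p = 0.0857), and 0.17 without 6 d replicate 3 (adjusted p = 0.369). Quantile normalization gave 0.45 (adjusted p = 0.0430) and median-ratio scaling 0.91 (adjusted p = 0.00228), both called. On the values as deposited this contrast called 48.8% of all genes, and the share under either scaling is not given here.

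*CiPaw.15G175200* had larger differences from 0 d than the other genes at 6 d and 9 d and was called on no day. At 6 d its mean FPKM was 2.73 times that of 0 d, with a log2 difference of 1.17 (standard error 0.61, 95% interval -0.13 to 2.46, adjusted p = 0.217 from limma). At this time point 6.96% of all genes had a larger difference. Without 6 d replicate 3 the log2 difference was 1.88 (adjusted p = 0.0465 from limma, standard error 0.55), and in that fit 10.4% of all genes were called. As that library was picked for its low values, the call is no added support. Without 6 d replicate 1 or 2 the log2 difference was 0.89 or 0.74, called in neither case. At 9 d the log2 difference was 0.91 (standard error 0.61, adjusted p = 0.291), and it was 1.51 without 9 d replicate 1 and 0.47 without 9 d replicate 2, called in neither case. At 12 d and 15 d it was 0.19 and -0.25, with 95% intervals of -1.11 to 1.48 and -1.55 to 1.04. The 15 d value rested on single libraries, with -0.74 without 15 d replicate 3 and -0.0078 without 15 d replicate 2. The log2 difference of 15 d from 6 d was -1.42 (adjusted p = 0.0653 from limma, standard error 0.61). This contrast called 0 of the 3 genes against 48.8% of all genes. An unadjusted p below 0.05 was found for 2 of the 3 and for 55.5% of all genes. Without 6 d replicate 3 the difference of *CiPaw.15G175200* was -2.13 (adjusted p = 0.00804) and was called, as were 46.3% of all genes. Without 9 d replicate 1 or 15 d replicate 3 it was called as well, with -1.42 (adjusted p = 0.0402) and -1.90 (adjusted p = 0.0266), against 50.5% and 45% of all genes. In 23 of 27 alternatives no call was made. Under median-ratio scaling the fall shrank to -0.86 (limma, adjusted p = 0.220). Leaving out 6 d replicate 1 or 2 reduced the fall to -1.14 or -0.99. Leaving out 15 d replicate 1 or 2 reduced it to -1.18 in either case. The median gene fell by a log2 difference of -0.39 between 6 d and 15 d. Between 6 d and 9 d and between 6 d and 12 d, limma called 0 of the 3 genes against 0.00409% and 0.0368% of all genes, and 0 of the 3 had an unadjusted p below 0.05 against 6.86% and 18.5%.

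The most abundant gene, *CiPaw.16G114100*, was also called on no day. Its log2 differences from 0 d were -0.04, 0.30 and 0.01 on days 3, 6 and 9 and -0.24 and -0.23 on days 12 and 15, each with a standard error of 0.35 and adjusted p values from 0.596 to 0.988 from limma. The 95% interval at 6 d ran from -0.45 to 1.05 and that at 15 d from -0.98 to 0.52. Doubling at 6 d is thus inside the interval, and halving at 15 d lies just outside it. Halving is not excluded under every setting. Without 15 d replicate 3 the 15 d difference was -0.35 (standard error 0.41), and without a filter on low values its standard error was 0.40. Without 6 d replicate 3 the log2 difference at 6 d was 0.70 (standard error 0.33, adjusted p = 0.195), against 0.094 without 6 d replicate 1 and 0.10 without 6 d replicate 2, and the difference of 15 d from 6 d, -0.53 with all libraries (adjusted p = 0.220), was -0.94 and called (adjusted p = 0.0317 from limma). The 15 d difference was 0.12 after median-ratio scaling, which moved the median of all genes at 15 d to -0.03, and the 12 d difference was 0.25 after quantile normalization.

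**Figure D3:**
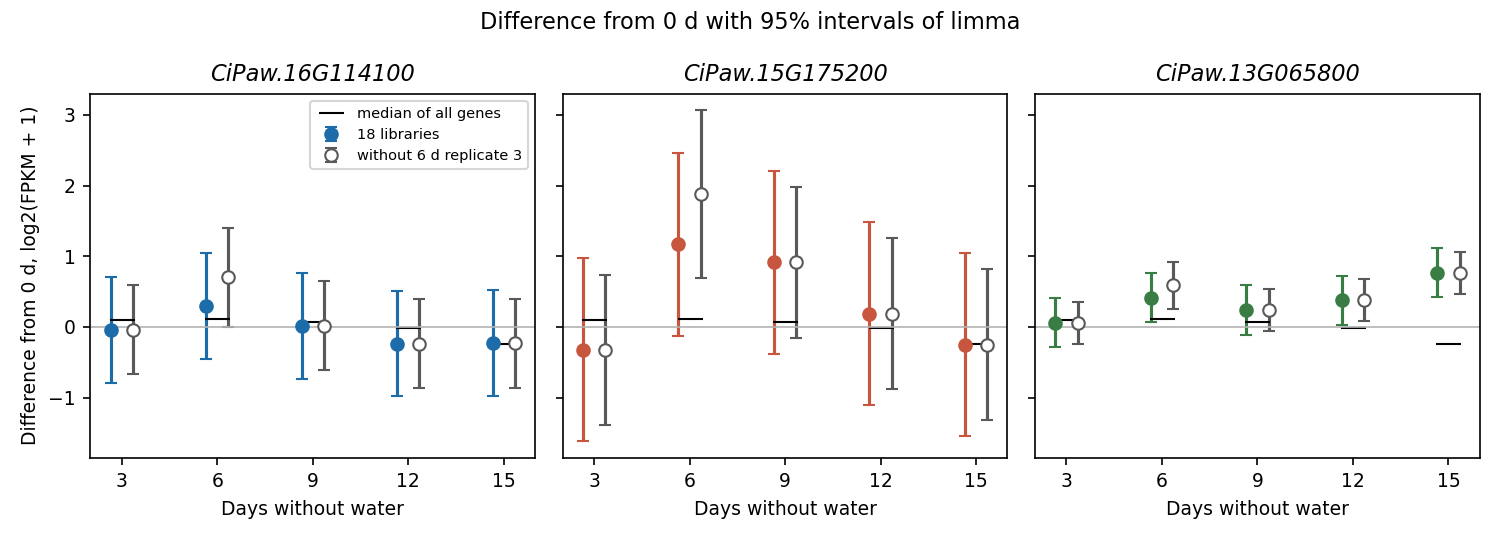
Difference of each day from 0 d on log2(FPKM + 1) (y axis) against days without water (x axis), with 95% intervals of limma, for all 18 libraries (filled) and without 6 d replicate 3 (open). The library left out was picked because it was the lowest of 6 d for each gene. Short black lines are the median of all genes; for *CiPaw.15G175200* the 6 d difference is 1.17 with and 1.88 without that library, and for *CiPaw.13G065800* the 15 d interval, 0.42 to 1.11, lies above 0.

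The duplicated pair can be compared within a library, where no scaling between libraries enters. The ratio of *CiPaw.16G114100* to *CiPaw.15G175200* was 5.36, 5.37 and 7.63 at 0 d. At 6 d it was 2.96, 2.38 and 5.06, below each ratio of 0 d. At 3 d it was 4.84, 11.7 and 7.04, at 9 d 6.07, 2.15 and 2.57, at 12 d 3.68, 3.92 and 6.28, and at 15 d 7.35, 8.57 and 3.65. The share of *CiPaw.15G175200* in the summed FPKM of the pair was 11.6% to 15.7% at 0 d and reached 31.8% in 9 d replicate 2. The log2 ratio had a mean of 2.59 ± 0.29 at 0 d and 1.72 ± 0.56 at 6 d (SD, n = 3), a difference of -0.87 with an exact two-sided permutation p of 0.1, the smallest that 3 libraries against 3 can give, and 0.5 after adjustment over the 5 days. The differences at 9 d and 12 d were -0.91 and -0.43, each with an exact permutation p of 0.3, and those at 3 d and 15 d were 0.29 and 0.02. RSEM, the tool that gave the FPKM, divides reads that align to several genes, and whether reads aligned to both genes of the pair was not tested.

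**Figure D4:**
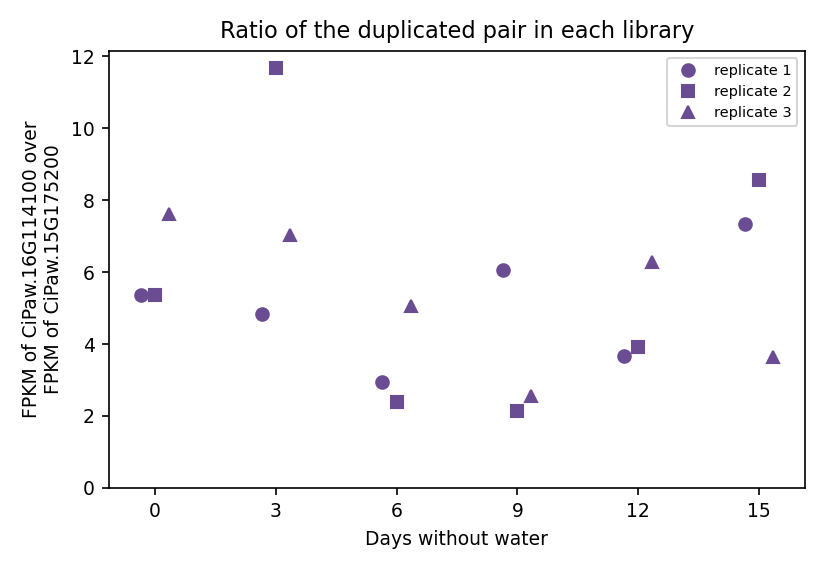
FPKM of *CiPaw.16G114100* divided by FPKM of *CiPaw.15G175200* in each of 18 libraries (y axis, from 0) against days without water (x axis), with symbols for replicates. The 6 d ratios, 2.38 to 5.06, are below the 0 d ratios, 5.36 to 7.63, and on other days the ranges overlap with that of 0 d.

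Much of the variation of the pair lay between libraries of one day. On log2(FPKM + 1), differences between days made up 29.8% of the variance of *CiPaw.16G114100* and 42.5% of that of *CiPaw.15G175200*, but 72.4% of that of *CiPaw.13G065800*. The median gene had 65.3%, and that of the 4345 genes with a mean of at least 30 FPKM 76.4%. These shares are not corrected for the 6 day means fitted to 18 libraries. A share well above 0 is therefore reached even without any difference between days. For *CiPaw.16G114100* the moderated F-test over all days gave F = 0.64 (adjusted p = 0.702), so its share is no sign of a day effect. The SD within days was 0.34, 0.81 and 0.19 for the 3 genes in the same order, larger than that of 50.2%, 90.5% and 16.2% of all genes tested.

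The levels of the pair were correlated over the libraries, and the deviations from the day means ran together in part. Over the 18 libraries the log2(FPKM + 1) of *CiPaw.16G114100* and *CiPaw.15G175200* were correlated, with r = 0.757 (Pearson, p = 0.00037 by permutation, 0.00111 after adjustment over the 3 pairs of genes). By rank the correlation was weaker, with rho = 0.523 (Spearman, p = 0.0281 by permutation, 0.0843 after adjustment). All permutations of the correlations shuffled the 18 libraries freely, although libraries of a day share the treatment. Their p values thus treat the libraries as independent and may be too small. Without 6 d replicates 1 and 2, the libraries farthest from the median of *CiPaw.16G114100*, r was 0.528, and after median-ratio scaling r was 0.531 with an adjusted p of 0.0709 from permutation, so the size of the relation depends on these libraries and on the scaling. After the day means had been subtracted r was 0.784, and 0.616 without 6 d replicate 3. Both genes of the pair lay on the same side of their day means in 12 of 18 libraries. No relation of *CiPaw.13G065800* with either gene passed the test over all libraries (r of 0.181 with *CiPaw.16G114100*, permutation p = 0.475, rho of 0.03, permutation p = 0.903, and r of 0.215 with *CiPaw.15G175200*, permutation p = 0.391, rho of 0.197, permutation p = 0.433). Adjusted over the pairs, the p values of r were 0.475 for both, and those of rho 0.903 and 0.65. Without the libraries farthest from the median of the first gene of the pair, r was -0.14 and 0.06. After subtraction of the day means it was 0.725 and 0.481, and without 6 d replicate 3 these were 0.428 and 0.125. *CiPaw.13G065800* lay on the same side of its day mean as *CiPaw.16G114100* in 13 of 18 libraries, and as *CiPaw.15G175200* in 11. Deviations within days have fewer free values than libraries, and their r is given as a description.

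Deviations like those of *CiPaw.15G175200* were not particular to that gene. The main axis of variation within days over all 24443 genes held 40.3% of that variance, and 32.8% of the genes had an r of at least 0.6 in size with it. The r of the deviations with this axis over the 18 libraries was 0.784 for *CiPaw.15G175200*, 0.410 for *CiPaw.16G114100* and 0.215 for *CiPaw.13G065800*. Only that of *CiPaw.15G175200* reached 0.6. The libraries lowest on the axis were 9 d replicate 1, 3 d replicate 2 and 6 d replicate 3, and *CiPaw.15G175200* lay below its day mean in each of them. *CiPaw.16G114100* and *CiPaw.13G065800* lay below theirs in 9 d replicate 1 and 6 d replicate 3. In 3 d replicate 2 they lay above, by 0.24 and 0.04. The part of this axis in the differences between days was not tested.

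**Figure D5:**
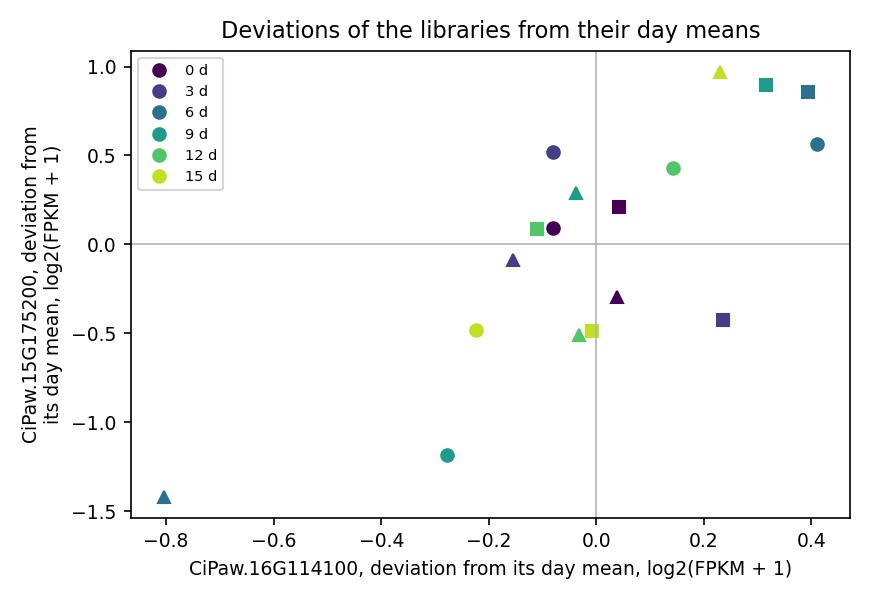
Deviation of each library from its day mean on log2(FPKM + 1), *CiPaw.16G114100* on the x axis and *CiPaw.15G175200* on the y axis, coloured by day, with circles for replicate 1, squares for replicate 2 and triangles for replicate 3. The point at the lower left is 6 d replicate 3, at -0.80 and -1.42, and r over the 18 points is 0.784.

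The genes with the most similar profiles differed between the 3 genes. Likeness was the Pearson r of log2(FPKM + 1) over the 18 libraries among 24443 genes, and it describes profiles that share the same libraries. For *CiPaw.16G114100* the closest gene was CIL1201S0013, with r of 0.892 and 14.8 ± 11.0 FPKM at 6 d (SD, n = 3), and 0 genes reached an r of 0.9. With the day means subtracted, 22 genes reached 0.9. For *CiPaw.15G175200* it was CIL0203S0005, with r of 0.953, and 15 genes reached 0.9. After subtraction of the day means its r was 0.986 and the number of such genes 106, so the likeness lay largely within days. For *CiPaw.13G065800* it was CIL0176S0047, with r of 0.943, which went from 6.32 ± 0.38 FPKM at 0 d to 72.1 ± 5.33 FPKM at 15 d (SD, n = 3). Here 42 genes had an r of at least 0.9 and 12 an r of -0.9 or below, and 2 genes reached 0.9 after subtraction of the day means.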

How the data were processed

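Poly(A)-enriched leaf RNA was sequenced on an Illumina NovaSeq. The authors quantified transcripts as FPKM with RSEM, and the deposited values carry 2 decimals. The submitters' processing notes name fastp 0.18.0, Bowtie2 2.2.8, HISAT2, StringTie 1.3.1 and RSEM without their roles, and the build and annotation are not given in the sources used here. FPKM keeps no read number, so no count test was run. For the 24443 genes averaging 0.1 FPKM or more, limma 3.58.1 (R 4.3.3) was run on log2(FPKM + 1), one mean per day, trended eBayes, two-sided. Fold changes on this scale understate changes of low genes. Relative depth came from 1546 genes with low values. Permutation tests and correlations (100000 permutations, exact for the ratio) used Python 3.11.15 and scipy 1.17.1. The limma step was tested on simulated data with independent normal noise for each gene and library. These lack the variation within days that genes share here, so the test does not cover it.

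The genes, contrasts and rules were chosen with earlier results of these data known. Named genes were the 3 members and, for each, the gene of highest r. Alternatives were median-ratio scaling, quantile normalization, a pseudocount of 0.1, no filter or a mean of at least 1 FPKM, no trend, the 2 days alone, a replicate block and each library left out. Leaving out 4 libraries together, on each day from 3 d to 12 d the one least like the others of its day, was added after seeing the data, as was a fit of 0 d and 6 d alone with a replicate block. All columns were mapped to samples by their names. The labels call the libraries of a day replicates of one treatment.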

Additional observations from a re-analysis of the deposited data

How the results depend on the processing

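The call of *CiPaw.13G065800* at 15 d and its test over all days held under every alternative run, and no call between days was lost under any of them. After median-ratio scaling the uncalled log2 differences of *CiPaw.16G114100* became -0.12 (9 d against 0 d), 0.12 (15 d against 0 d) and 0.031 (15 d against 6 d), that of *CiPaw.15G175200* 0.10 (15 d against 0 d) and those of *CiPaw.13G065800* -0.066 (3 d against 0 d) and 0.14 (12 d against 6 d), all with a turned sign, and the r of the pair was 0.53 and no longer called. Quantile normalization turned *CiPaw.16G114100* to 0.11 at 3 d and 0.25 at 12 d and *CiPaw.13G065800* to -0.010 at 3 d. *CiPaw.13G065800* was called between 6 d and 15 d under both, with 0.91 and 0.45, in a contrast that called 48.8% of all genes as deposited. The cause of these shifts was not tested.

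With each library left out, ranges of the log2 difference that crossed 0 or the threshold were, for *CiPaw.16G114100*, -0.16 to 0.035 at 3 d, -0.14 to 0.15 at 9 d and -0.94 to -0.33 between 6 d and 15 d. For *CiPaw.15G175200* they were 0.74 to 1.88 at 6 d, -0.026 to 0.44 at 12 d, -0.96 to 0.34 between 6 d and 9 d and -2.13 to -0.99 between 6 d and 15 d, and its F ranged from 1.44 to 4.61, called without 6 d replicate 3 (adjusted p = 0.0230), where the F-test on all libraries called 57.8% of all genes. For *CiPaw.13G065800* they were -0.019 to 0.11 at 3 d, 0.32 to 0.59 at 6 d, 0.28 to 0.51 at 12 d and -0.21 to 0.094 between 6 d and 12 d. The difference of the pair's log2 ratio from 0 d ranged from -0.048 to 0.59 at 3 d and from -0.22 to 0.40 at 15 d.

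Without 3 d replicate 2, 6 d replicate 3, 9 d replicate 1 and 12 d replicate 2 together, an alternative chosen after seeing the data, more differences were called for the 3 genes and over all genes. Removing the library least like its day lowers the spread within days by itself, so these calls are no added support. The standard error of *CiPaw.16G114100* at 6 d, for example, went from 0.35 to 0.22. The share of all genes called was 25.6%, 26.4% and 49.7% on days 6, 9 and 12, 31.6% between 6 d and 12 d, 57.7% between 6 d and 15 d and 73.8% over all days. The values newly called were 0.70 at 6 d, -0.88 between 6 d and 12 d and -0.94 between 6 d and 15 d, with an F of 4.58, for *CiPaw.16G114100*. For *CiPaw.15G175200* they were 1.88 at 6 d, 1.51 at 9 d, -1.73 between 6 d and 12 d and -2.13 between 6 d and 15 d, with an F of 8.20, and for *CiPaw.13G065800* 0.59 at 6 d and 0.51 at 12 d.

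Of 45 correlations of same-numbered deviations between days, 15 exceeded 0.1, and 5 of 18 libraries were closest to their own number, so the numbers were not taken to pair the libraries. Between 0 d and 6 d, however, each number's correlation exceeded 0.1 (0.49, 0.26 and 0.58). A fit of these days alone with a replicate block, added after seeing the data, gave 6 d differences of 0.30, 1.17 and 0.41 for *CiPaw.16G114100*, *CiPaw.15G175200* and *CiPaw.13G065800* with adjusted p values of 0.567, 0.102 and 0.0549 from limma, none called. It called 6118 genes, against 3387 at 6 d in the fit over all days without a block. These fits differ in their libraries and in the block, and the part of either was not tested. In the fit over all days, the block moved the 6 d number from 3387 to 3166. Over all days, a replicate block changed 0 calls of the 3 genes (15 d difference of *CiPaw.13G065800* 0.77, adjusted p = 0.00157 from limma) and moved the number of genes called at 15 d from 13708 to 13573. Each day had 3 libraries, which limits the precision.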
